A study of Mus musculus with 6 samples.

Results

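The genes described here encode the respiratory chain and the ATP synthase of mitochondria. They were taken by name, as every gene whose symbol starts with Ndufa, Ndufb, Ndufc, Ndufs or Ndufv (complex I), Sdha to Sdhd (complex II), Uqcr (complex III), Cox4 to Cox8 (complex IV) or Atp5 (ATP synthase). This gave 93 of the 19752 genes measured, of which 81 encode structural subunits and 12 encode factors that share a prefix but assemble the complexes or link them. The 81 subunits comprised 34 of complex I, 4 of complex II, 8 of complex III, 18 of complex IV and 17 of the ATP synthase. Ndufa4 and its relative Ndufa4l2 were counted with complex IV, where the Ndufa4 protein is now placed.

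RNA was measured on Affymetrix Mouse Gene 1.0 ST arrays, 3 of pancreatic and 3 of splenic regulatory T (Treg) cells, the Foxp3-expressing CD4 T cells that restrain immune responses. Both groups came from female, prediabetic NOD.Foxp3-ires-gfp mice aged 10 weeks, whose background is listed as NOD NRB_SFB+, and both were sorted as DAPI- CD45+ TCRb+ CD4+ GFP+ cells. The NOD strain develops autoimmune diabetes spontaneously, the reporter marks Foxp3-expressing cells with green fluorescent protein, and the labels give no treatment. The labels do not say whether arrays came from separate mice or from pools, so tests here measure only the spread between these arrays, which may be technical.

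The respiratory chain passes electrons from NADH (complex I) and succinate (complex II) through complex III and cytochrome c to oxygen at complex IV. Complexes I, III and IV pump protons across the inner mitochondrial membrane, and the ATP synthase uses their return to make ATP. Most subunits are encoded in the nucleus and the remainder in mitochondrial DNA, so both genomes have to be expressed together. Treg cells are known to rely on oxidative phosphorylation more than conventional effector T cells do, and Foxp3 itself favours it.

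The genes that define the sorted cells were set side by side first. Foxp3 was at a log2 intensity of 11.48 ± 0.16 on pancreas arrays and 11.52 ± 0.32 on spleen arrays (SD, n = 3 each), and 0 of 10 sorting and Treg identity genes differed by limma, a linear model with variances shared across genes (1 of the 10, Ctla4, at an unadjusted p under 0.05). Genes of pancreatic acinar cells were present on the pancreas arrays, where the summed intensity of 15 markers was 15202 to 32564. The sum was 1439, 1316 and 3188 on spleen arrays 1 to 3, highest on spleen array 3. Of these 15, 13 passed the test and 0 were below background on every array. The 9 B cell markers summed to 861 to 1802 on pancreas and 643 to 712 on spleen arrays, with 1 past the test, and the 10 macrophage and dendritic cell markers to 844 to 852 and 587 to 672, with 1 past the test and 6 below background on all arrays. Of the latter 10, Lyz2 passed, with a log2 fold change of 1.90 ± 0.19 SE, and Cd68 was at 0.54 ± 0.19 SE. A lower mean in pancreas was found for 4 of them, and the list median was 0.04. The part of these cells in the results below was not tested, and in sorted populations fewer cells of a type and less RNA per cell cannot be told apart. The arrays also differed in the width of their log2 distribution. The interquartile range was 2.96, 2.63 and 2.10 on pancreas arrays 1 to 3 and 2.38, 2.69 and 2.90 on spleen arrays 1 to 3.

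Differences in respiratory chain genes between pancreatic and splenic Treg cells were small, and both signs occurred. Of the 93 genes, 0 passed the test in either direction (limma, Benjamini-Hochberg over 19752 genes, adjusted p under 0.05), against 0.678% of all genes (0.547% higher in pancreas and 0.132% lower). At an unadjusted limma p under 0.05, 3 were higher in pancreas and 2 lower, and the shares were 3.20% and 3.64% of all genes and 4.45% and 5.69% of the genes above background. For 7 genes every pancreas array was higher than every spleen array, and for 3 genes every one was lower. These shares were 4.57% and 5.81% of all genes, and 5.76% and 8.46% of the genes above background. The smallest adjusted p was 0.385, of Cox5a.

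The 95% intervals bounded the fold changes, with a median SE of 0.18 for the respiratory chain genes and 0.19 for all genes, each above background. A mean above background was found for 88 of the 93 genes, background being the level under which 95% of 1194 olfactory and vomeronasal receptor genes lay (an intensity of 63.9). For 87 of these 88 genes the 95% interval of the difference lay within 2-fold in either direction, as it did for 92.6% of the 11698 genes above background. It lay within 1.5-fold for 45 of the 88, against 50.6% of all genes above background. The exception at 2-fold was Atp5d, with an interval of -0.40 to 1.26 on the log2 scale. Small differences were not detectable with 3 arrays per tissue. These intervals are not the limit of the test, since they are not adjusted for the number of genes. The interval excluded 0 for 5 of the 88 genes, against 1187 of the 11698, and none of the 5 passed.

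The counts of higher and lower means are given by class, and differences between classes were not tested. Of the 77 structural subunits above background, 57 had a higher mean in pancreas, with a median log2 fold change of 0.12, while among all 11698 genes above background 40.7% had a higher mean and the median was -0.04. This subunit median depended on single arrays, being 0.06 without pancreas array 1, 0.07 without spleen array 1 and 0.22 without either pancreas array 3 or spleen array 3, and it was 0.25 with the arrays scaled to 1 interquartile range. Over all 81 subunits, with no filter, 60 had a higher mean, against 49.8% of all genes. The median of the 77 subunits above background lay at a log2 intensity of 8.95, 8.87 and 8.79 on pancreas arrays 1 to 3. It was 8.48, 8.51 and 8.78 on spleen arrays 1 to 3. For these 77 the tissues did not overlap, though pancreas array 3 and spleen array 3 were nearly level. Over all 81 subunits the tissues overlapped, with medians of 8.80, 8.81 and 8.56 in pancreas and 8.46, 8.40 and 8.67 in spleen. Set against the median of all genes above background on the same array, the median of the 77 subunits stood higher. The difference was 1.18, 1.21 and 1.42 in pancreas and 0.95, 0.84 and 1.01 in spleen. All 3 pancreas arrays were then above all 3 spleen arrays. The subtracted median itself was 7.77, 7.65 and 7.37 on pancreas arrays and 7.53, 7.67 and 7.77 on spleen arrays. It was lowest on pancreas array 3, the array with the narrowest distribution. How far array width enters this separation was not tested.

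**Figure D1:**
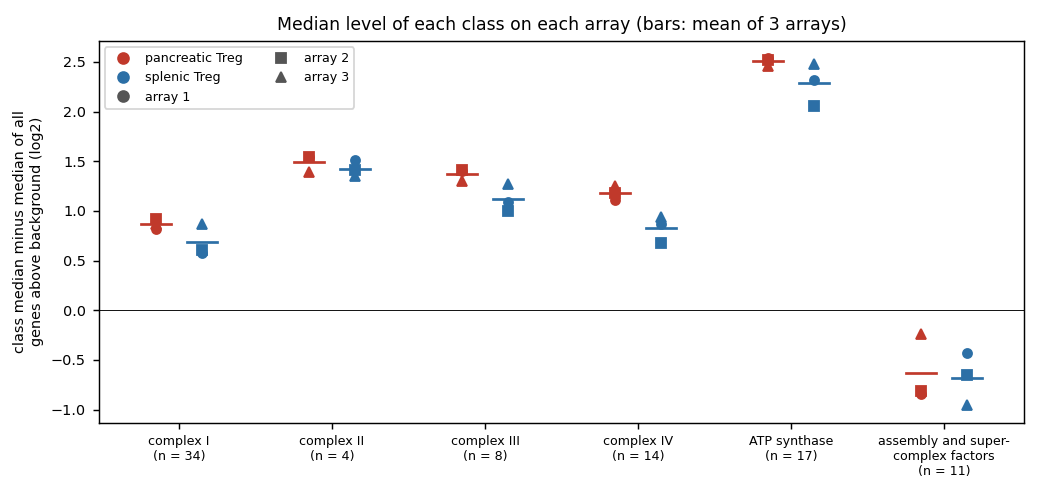
Median log2 intensity of each class on each array, minus the median of all genes above background on that array, for genes above background (n under each class). Colours give the tissue, symbols the array number and bars the mean of 3 arrays. Complexes III and IV show no overlap between tissues, while complexes I and II, the ATP synthase and the assembly factors do. Without that subtraction, complexes III and IV overlapped as well. Complex III was at 9.17, 9.07 and 8.67 on pancreas arrays 1 to 3 and 8.62, 8.66 and 9.04 on spleen arrays. Complex IV was at 8.88, 8.83 and 8.63 against 8.40, 8.34 and 8.70.

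Nuclear genes of the respiratory chain are known targets of the transcription factors NRF1, GABP (an ETS factor) and YY1. RefSeq promoter windows of GRCm38.p6, from 250 bases before to 50 after a gene's start, were held for 77 of the 93 genes (82 windows). The NRF1 motif, searched as GCGCA and GCGC with any base between them, stood on either strand in 25.6% of these windows, against 6.38% of 21262 windows of all protein-coding genes. The ETS letters CCGGAAG stood in 25.6% against 11.6%, and the YY1 letters AAGATGGCG in 8.54% against 1.83%. None of the 3 motifs contains another, and a match is a description, not a site of binding. At least 1 of the 3 stood in 51.2% of the 82 windows, against 17.9% of the windows of all protein-coding genes. By class the share was 61.1% for the ATP synthase, 45.5% for complex I and 63.6% for the assembly and supercomplex factors. It was 3 of 3 windows for complex II, 3 of 5 for complex III and 3 of 12 (25.0%) for complex IV. The motifs were thus found in classes on both sides of 0.

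The 250 bases before the start of 4 genes that led the fold changes are shown, the highest and the lowest of those at an unadjusted limma p under 0.05. They are read on the gene's strand, 5′ to 3′, with a match to any of the 3 motifs in capitals. Cox5a lies at chr9:57520982-57521231 on the plus strand, Atp5e at chr2:174464102-174464351, Sdhaf1 at chr7:30322376-30322625 and Ndufs5 at chr4:123718187-123718436, these 3 on the minus strand. Atp5e holds the ETS letters on the other strand, and Ndufs5, which was lower in pancreas, holds the NRF1 letters, while the windows of Cox5a and Sdhaf1 hold none of the 3.
Cox5a: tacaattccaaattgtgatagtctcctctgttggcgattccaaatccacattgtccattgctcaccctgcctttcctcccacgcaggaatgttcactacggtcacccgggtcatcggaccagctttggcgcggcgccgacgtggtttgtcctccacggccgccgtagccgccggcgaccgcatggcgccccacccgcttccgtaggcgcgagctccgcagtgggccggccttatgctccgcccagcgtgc
Atp5e: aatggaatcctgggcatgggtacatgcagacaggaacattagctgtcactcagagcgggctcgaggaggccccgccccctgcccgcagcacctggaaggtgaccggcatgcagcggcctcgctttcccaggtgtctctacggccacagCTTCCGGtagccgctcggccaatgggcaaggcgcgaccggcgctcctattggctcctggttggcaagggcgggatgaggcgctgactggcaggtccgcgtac
Sdhaf1: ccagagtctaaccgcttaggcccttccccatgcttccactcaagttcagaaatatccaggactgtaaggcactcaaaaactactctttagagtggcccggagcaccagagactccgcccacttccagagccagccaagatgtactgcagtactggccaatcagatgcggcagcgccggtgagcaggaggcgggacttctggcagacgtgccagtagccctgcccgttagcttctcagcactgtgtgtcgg
Ndufs5: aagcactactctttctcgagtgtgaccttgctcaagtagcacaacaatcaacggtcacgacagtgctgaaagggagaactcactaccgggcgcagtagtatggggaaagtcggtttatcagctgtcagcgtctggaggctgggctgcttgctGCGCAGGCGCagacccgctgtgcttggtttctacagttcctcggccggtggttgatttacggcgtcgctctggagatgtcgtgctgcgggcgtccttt

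Complex I takes electrons from NADH in its peripheral arm and pumps protons in its membrane arm. Its 34 genes were all above background, with 21 higher in mean in pancreas, against 40.7% of all genes above background. Set against the median of those genes on the same array, the class median stood higher by 0.87 ± 0.05 in pancreas and 0.69 ± 0.16 in spleen (SD, n = 3 each). The tissues overlapped on that measure. The log2 fold changes had a mean of 0.09 and a median of 0.03. Leaving out 1 array moved this median between 0.02 (without pancreas array 2) and 0.10 (without pancreas array 3). The arms differed in their values. Of the 18 accessory subunits of the membrane arm, 14 had a higher mean in pancreas (median 0.11), as did 4 of 9 accessory subunits (median -0.02) and 2 of 6 core subunits (median -0.08) of the peripheral arm. The acyl carrier Ndufab1, which sits in both arms, was at 0.04. Whether these parts differ from each other was not tested.

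Ndufa1, a small membrane-arm subunit needed for assembly of the complex, had the highest fold change of complex I. It was at a log2 intensity of 7.47, 7.44 and 7.31 on pancreas arrays and 7.34, 6.62 and 6.92 on spleen arrays, so that spleen array 1 lay within the pancreas range. The log2 fold change was 0.44 ± 0.20 SE (adjusted p = 0.730). Ndufb6 had a log2 fold change of 0.39 ± 0.25 SE and Ndufa11 of 0.35 ± 0.18 SE, neither past the test. Ndufa12, an accessory subunit of the peripheral arm named after its values were seen, was the only complex I gene with all pancreas arrays higher. Its values were 7.80, 8.03 and 7.87 in pancreas and 7.28, 7.73 and 7.75 in spleen.

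Ndufs5, an accessory subunit of the membrane arm on the intermembrane side, had the lowest fold change of complex I. It was at 6.77, 6.49 and 6.63 on pancreas arrays and 6.90, 7.08 and 6.99 on spleen arrays. The tissues did not overlap, and the log2 fold change was -0.36 ± 0.16 SE (adjusted p = 0.723). Ndufs1, the largest core subunit, which carries iron-sulfur clusters, followed at -0.22 ± 0.20 SE and the core subunit Ndufs7 at -0.13 ± 0.19 SE. Ndufs7 turned to 0.15 with the arrays scaled to 1 interquartile range. The core subunits Ndufs8 (0.33) and Ndufv2 (0.22) lay on the other side of 0, and none of the 6 core genes passed the test.

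Complex II oxidises succinate and is also an enzyme of the citrate cycle. Its flavoprotein Sdha was at 9.77, 9.59 and 9.24 on pancreas arrays and 9.70, 9.64 and 9.96 on spleen arrays, with a log2 fold change of -0.23 ± 0.19 SE. The other 3 genes had higher means in pancreas. The iron-sulfur subunit Sdhb was at 0.15 ± 0.19 SE, and the membrane anchors Sdhc and Sdhd at 0.12 ± 0.17 SE and 0.17 ± 0.18 SE. All 4 overlapped between tissues, none passed the test, and their median was 0.13, or 0.06 without spleen array 1 and 0.20 without pancreas array 3.

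Complex III carries electrons from ubiquinol to cytochrome c. Its 8 genes had the highest class median, 0.23, but this value depended on single arrays, being 0.03 without pancreas array 1 and 0.36 without spleen array 3. All 5 small subunits had a higher mean in pancreas, between 0.22 and 0.39. Uqcr11 led them, with 8.80, 8.67 and 8.33 in pancreas and 8.14, 8.13 and 8.36 in spleen. Pancreas array 3 fell just below spleen array 3, and the log2 fold change was 0.39 ± 0.18 SE (adjusted p = 0.733). Uqcrh, the acidic hinge protein, was at 0.33 ± 0.26 SE and Uqcr10 at 0.26 ± 0.19 SE. The larger subunits among these 8 genes lay around 0. Cyc1, the cytochrome c1 of complex III, falls outside the name prefixes and was at 0.25 ± 0.19 SE. The core proteins Uqcrc1 and Uqcrc2 were at 0.06 ± 0.25 SE and -0.08 ± 0.16 SE, and Uqcrfs1, the Rieske iron-sulfur protein that passes on the electron, at -0.13 ± 0.20 SE. Uqcrc2 turned to 0.13 with the arrays scaled to 1 interquartile range.

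Complex IV, cytochrome c oxidase, reduces oxygen to water, and several of its subunits exist in a ubiquitous and a tissue-restricted form. All 10 ubiquitous forms had a higher mean in pancreas, with a median log2 fold change of 0.23 and a range of 0.08 to 0.48. Cox5a, a subunit on the matrix side of the enzyme, had the largest fold change of all 93 genes. It was at a log2 intensity of 9.07, 8.80 and 8.88 on pancreas arrays and 8.40, 8.40 and 8.50 on spleen arrays. Every pancreas array was higher, and the difference of 0.48 ± 0.16 SE, 1.40-fold, was larger than the spread within either tissue (0.14 in pancreas and 0.06 in spleen, SD, n = 3 each) but did not pass the test (adjusted p = 0.385).

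Cox8a, a small membrane subunit, was at 10.70, 10.72 and 10.52 on pancreas arrays and 10.27, 10.35 and 10.36 on spleen arrays, again without overlap (0.32 ± 0.16 SE, adjusted p = 0.816). Cox6b1, which faces the intermembrane space, was at 0.26 ± 0.17 SE and Cox6a1 at 0.23 ± 0.17 SE. The lowest of the ubiquitous forms were Cox4i1 (0.16), Cox7a2 (0.09) and Ndufa4 (0.08). Over the 14 complex IV genes above background the median was 0.13, and over all 18 it was also 0.13. Leaving out spleen array 2 gave 0.08 and leaving out spleen array 3 gave 0.30.

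The tissue-restricted forms showed no such direction. Cox7a1, the form of heart and skeletal muscle, and the testis form Cox7b2 were below background on all 6 arrays. Cox8b, a heart and muscle form, was above background on 2 arrays and Ndufa4l2, which is induced by hypoxia, on 1. Of the 4 with a mean above background, the lung form Cox4i2 was at a log2 fold change of -0.04, the testis forms Cox6b2 at -0.14 and Cox8c at -0.08, and the heart and muscle form Cox6a2 at 0.08. Their intervals all included 0, and a level just above a background set by receptor genes does not show that a gene was expressed.

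The ATP synthase couples a rotating ring in the membrane to a catalytic head in the matrix. Of its 17 genes, all above background, 16 had a higher mean in pancreas, with a median log2 fold change of 0.17 that was 0.07 with spleen array 1 left out and 0.28 with spleen array 3 left out. The exception was Atp5pb, a stalk subunit, at -0.02, and another of its probe sets gave 0.07. Atp5e, the epsilon subunit of the central stalk, was at 8.01, 8.28 and 8.10 on pancreas arrays and 7.71, 7.57 and 7.75 on spleen arrays. Every pancreas array was higher, and the difference was 0.46 ± 0.16 SE, or 1.37-fold (adjusted p = 0.455). Of the catalytic head, the beta subunit Atp5b was at 0.03 ± 0.18 SE and the alpha subunit Atp5a1 at 0.07 ± 0.24 SE. Atp5c1, the gamma subunit of the central stalk, was at 0.03 ± 0.19 SE.

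Atp5d, the delta subunit, had a log2 fold change of 0.43 ± 0.37 SE that depended on 1 array. It was at 11.93, 12.26 and 11.39 in pancreas and 10.51, 11.55 and 12.23 in spleen, and without spleen array 1 the value turned to -0.03. The genes Atp5g1, Atp5g2 and Atp5g3 encode the same c subunit of the ring with different import sequences. Atp5g3 was at 10.33, 10.22 and 10.04 in pancreas and 9.85, 9.72 and 9.96 in spleen, without overlap (0.35 ± 0.16 SE, adjusted p = 0.763). Atp5g1 was at 0.17 ± 0.16 SE and Atp5g2 at 0.13 ± 0.23 SE, both with overlapping tissues.

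The membrane subunits of the ATP synthase, which also shape its dimers, were all higher in mean in pancreas, between 0.17 and 0.35. Atp5l, subunit g, had 6 probe sets, and its fold change lay between 0.30 and 0.36 on each. On the brightest of them it was at 8.72, 9.13 and 9.25 in pancreas and 8.82, 8.65 and 8.57 in spleen, so that pancreas array 1 lay within the spleen range. Atp5k and Atp5mpl, named after their values were seen, did not overlap between tissues, at 0.21 ± 0.15 SE and 0.35 ± 0.18 SE. For Atp5mpl the tissues all but touched, since pancreas array 1 and spleen array 1 were both at 8.65. The stalk subunits Atp5o, Atp5h and Atp5j were at 0.19, 0.07 and 0.06.

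**Figure D2:**
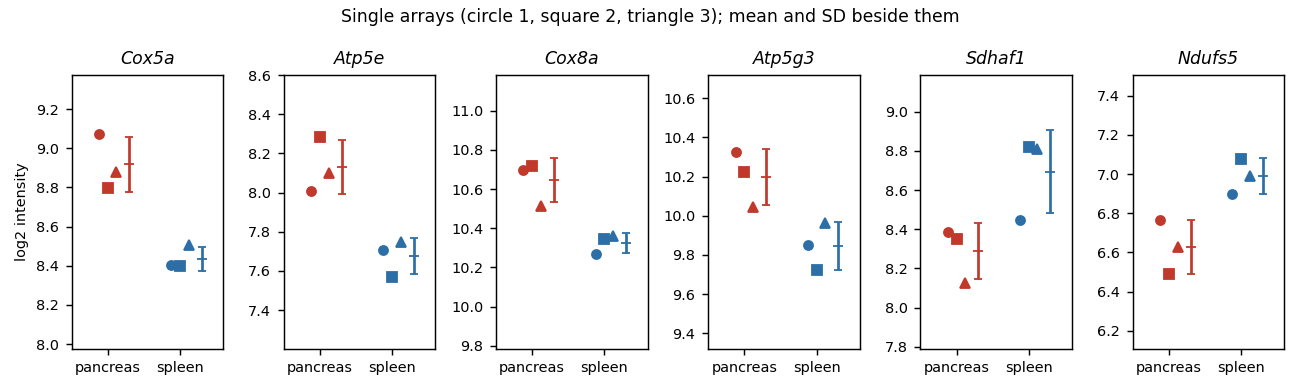
Log2 intensity on each array of 6 genes whose tissues did not overlap, chosen after their values were seen, with mean and SD (n = 3). Each panel spans the same range around its own centre. Cox5a, Atp5e, Cox8a and Atp5g3 are higher on all 3 pancreas arrays, and Sdhaf1 and Ndufs5 lower.

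The assembly and supercomplex factors help to build the complexes or to join them. Of the 12, only Ndufaf3 and Sdhaf3 had a higher mean in pancreas, and of the 11 above background the median log2 fold change was -0.14, between -0.28 without pancreas array 1 and -0.09 without pancreas array 3. Sdhaf1, which helps to insert the iron-sulfur clusters of complex II, had the lowest fold change of the 93 genes. It was at 8.39, 8.35 and 8.12 on pancreas arrays and 8.45, 8.82 and 8.81 on spleen arrays, with a log2 fold change of -0.40 ± 0.18 SE (adjusted p = 0.692). The complex I assembly factor Ndufaf2 was also lower on every pancreas array (-0.26 ± 0.16 SE). These genes were named after their values were seen. Cox7a2l, which joins complexes III and IV into supercomplexes, was at -0.06 ± 0.15 SE.

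Among assembly factors outside the name prefixes, a higher mean in pancreas was found for 0 of 6 complex I factors above background (median -0.24) and 1 of 5 of complex III (median -0.17). It was found for 7 of 17 factors of complex IV (median -0.09) and 2 of 5 genes of the ATP synthase list (median -0.09), shares close to the 40.7% of all genes above background. None of these passed the test. Uqcc3, a complex III factor, was at 7.03, 6.72 and 6.59 in pancreas and 7.36, 7.46 and 7.12 in spleen, the tissues not overlapping (-0.53 ± 0.18 SE, adjusted p = 0.410). The complex I factors Tmem126b (-0.41 ± 0.16 SE) and Tmem186 (-0.41 ± 0.17 SE) and the ATP synthase factor Atpaf1 (-0.38 ± 0.17 SE) were also lower on every pancreas array. Atpif1, which inhibits ATP hydrolysis by the synthase, was higher on every pancreas array (0.32 ± 0.17 SE, adjusted p = 0.894).

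Other parts of the pathway did not differ past the test either. The electron carrier Cycs, cytochrome c, was at 0.30 ± 0.20 SE and Cyc1, the cytochrome c1 of complex III, at 0.25 ± 0.19 SE. Of the subunits encoded in mitochondrial DNA, COX2 was at 0.00 ± 0.15 SE and ND3 at 0.20 ± 0.17 SE. All 6 carriers and channels above background had a higher mean in pancreas (median 0.21), led by the ADP/ATP carrier Slc25a5 (0.39 ± 0.20 SE). Of 13 regulators of mitochondrial biogenesis above background, 2 had a higher mean in pancreas (median -0.08). Tfb2m, a mitochondrial transcription factor, was the lowest in p of that list, at -0.40 ± 0.19 SE (adjusted p = 0.803).

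Neighbouring lists place these shifts. Glycolysis genes had a median of 0.31 with 10 of 11 higher in mean and Tpi1, triosephosphate isomerase, at 0.61 ± 0.16 SE (adjusted p = 0.197). Citrate cycle genes had a median of 0.01 (6 of 12 higher in mean), mitochondrial ribosomal proteins of 0.02 (41 of 74), cytosolic ribosomal proteins of 0.04 (39 of 58) and proteasome subunits of 0.09 (26 of 38), all for genes above background. None of these lists held a gene past the test by limma, and at an unadjusted p under 0.05 there were 3 glycolysis genes, 1 citrate cycle gene and 1 cytosolic ribosomal gene higher in pancreas, and 1 mitochondrial ribosomal gene lower. The difference between these lists and the respiratory chain was not tested.

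The size and the calls depended on how the spread between arrays was handled. Within spleen, array 3 gave the highest of the 3 values for 58 of the 88 genes above background, against 42.2% of all genes above background, and within pancreas, array 3 gave the lowest for 52, against 62.4%. Over the 88 genes above background, the counts at an unadjusted limma p under 0.05, 3 higher and 2 lower, became 11 and 2 with quantile normalization and 7 and 2 with scaling to 1 interquartile range. They were 0 and 0 with the replicate number as a block or without spleen array 2, 1 and 0 without pancreas array 2, 10 and 0 without pancreas array 3, 4 and 1 without spleen array 1, and 9 and 0 without spleen array 3. Among all genes above background, 521 were higher and 666 lower as deposited, 794 and 896 with quantile normalization, and 672 and 552 with scaling. They numbered 393 and 388 with the block, 432 and 330 without spleen array 2, and 383 and 326 without pancreas array 2. They were 825 and 433 without pancreas array 3, 402 and 533 without spleen array 1, and 511 and 436 without spleen array 3. With the interquartile range of each array as a covariate, an alternative chosen after seeing the data, 0 of the 93 genes passed the adjusted test, 19 were higher and 3 lower at an unadjusted p under 0.05, and the smallest adjusted p was 0.0523, of Cox5a. Of all genes above background, 1011 were higher and 1210 lower at that unadjusted level with this covariate. With array weights estimated gene by gene, also chosen after seeing the data, 9 passed as higher and 2 as lower, while 724 and 960 of all genes did so. Those weights were 3.15 on pancreas array 2 and 4.01 on spleen array 2 and below 1 on the other 4, so these calls rest largely on 1 array per tissue. In the 6 fits with 1 array left out, 0 of the 93 genes passed. The class medians kept their sign in each of 19 alternatives, above 0 for the 5 complexes and below 0 for the assembly and supercomplex factors.

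**Figure D3:**
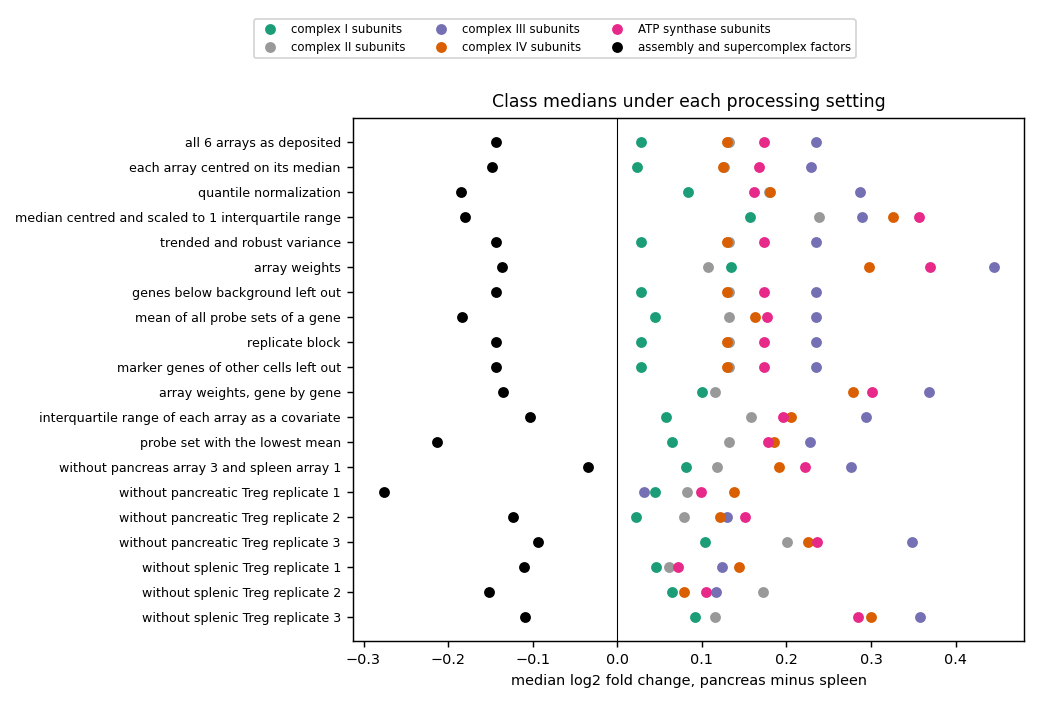
Median log2 fold change, pancreas minus spleen, of each class (genes above background) with all 6 arrays as deposited and under 19 alternatives. Points of the 5 complexes lie right of 0 in every row and those of the assembly and supercomplex factors left of it, at sizes that vary with the setting.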

How the data were processed

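The authors deposited a linear intensity for each probe set. The submitters' processing notes name RMA and Affymetrix Power Tools without versions. No source used here says whether all arrays were normalised in 1 run, and the array medians ran from 82.0 to 92.0. Per the labels, amplification used the Ambion WT Expression Kit. Values were taken to log2 with no pseudocount or filter. Of 24922 probe sets, 21425 name exactly 1 gene in the platform annotation and gave 19752 genes. Where a gene had several probe sets, as 18 of the 93 did, the brightest by mean over the 6 arrays stood for it. All 93 were found by gene ID in RefSeq's table for GRCm38.p6.

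Tissues were compared with limma 3.58.1 in R 4.3.3 (lmFit and eBayes, no covariates, two-sided, Benjamini-Hochberg over all genes, threshold 0.05), with 4 residual and 6.58 prior degrees of freedom. The fit was tested on simulated data. Folds are pancreas against spleen, with 95% intervals not adjusted for the number of genes. Precision is limited by how few arrays there are. Plots used matplotlib 3.10.9 under Python 3.11.15.

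The genes, lists, classes and tests were chosen with earlier results of these data known. Genes were named where they had the 3 highest or lowest fold changes among the subunits above background of complexes I, III and IV and the ATP synthase, belonged to complex II or to a set of paralogues, or had the smallest adjusted p of a pathway list. Other genes that the text names, such as Ndufs8, Ndufv2, Ndufab1, Atp5a1, Atp5o, Atp5h, Atp5j and the assembly factors among the 93, were chosen after their values were seen. Markers of islet, CD8 T and NK, erythroid, endothelial and ductal cells were also summed per array. Alternatives covered normalization, variance model, array weights, dim genes, probe set choice, marker genes, the replicate number and each array left out.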

Additional observations from a re-analysis of the deposited data

How the results depend on the processing

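No respiratory chain or ATP synthase gene passed the test under any alternative other than array weights. There 40 passed as higher in pancreas and 9 as lower, among 3803 and 3403 of all genes, but the estimation of the weights stopped before it converged, with weights of 9.50 on pancreas array 2 and 5.69 on spleen array 2 and below 1 on the others. Gene-by-gene weights gave 9 and 2, among 724 and 960 of all genes. Over all genes, 108 passed as higher in pancreas and 26 as lower with the arrays as deposited. These counts were 53 and 11 after centring every array on its median, 56 and 10 with arrays also scaled to 1 interquartile range, 164 and 48 with quantile normalization, 368 and 176 with the interquartile range as a covariate, and 279 and 68 without pancreas array 3 and spleen array 1, the narrowest. Genes lower in pancreas numbered 46 with dim genes left out and 14 with marker genes of other cells left out. Leaving out 1 array gave 46 to 226 higher and 4 to 44 lower. The complex IV median of 0.13 became 0.33 with scaling to 1 interquartile range, and 0.0793 to 0.299 with 1 array left out. Over the 19 alternatives the median lay between 0.02 and 0.16 for complex I, 0.06 and 0.24 for complex II, 0.03 and 0.45 for complex III, 0.07 and 0.37 for the ATP synthase and -0.28 and -0.04 for the assembly and supercomplex factors. The causes were not tested, and the covariate, the gene-by-gene weights, the probe set with the lowest mean and the fit without both narrow arrays were chosen after seeing the data. Of 757 values for 40 named genes under 19 alternatives, 33 crossed the threshold, all with array weights. Deviations of same-numbered arrays correlated at -0.18, 0.05 and -0.63. The arrays also differed in width, the narrow pancreas array 3 and spleen array 1 correlating at 0.48. These values therefore cannot show whether the replicate number marks a pairing of arrays. With the replicate number as a block, 15 genes were lower in pancreas and 0 of the 93 passed.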

Other observations

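Of the probe sets that name more than 1 gene, 6 name a respiratory chain gene beside another and were used in no comparison. The 3 that name Cox7c, a complex IV subunit, with Gm12338 had log2 fold changes of 0.22 to 0.24, pancreas minus spleen. The 2 that name Ndufb4 with Ndufb4b, subunits of complex I, were at -0.13 and -0.15. The 1 that names Ndufs5 with Ndufs5-ps was at -0.29, beside -0.36 for the probe set of Ndufs5 alone. With 3 arrays in each tissue, the test for outlying arrays could not be applied.

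The 18 genes with several probe sets gave 1 sign on all of them except Atp5pb. The widest range of fold changes within a gene was 0.28 on the log2 scale, for Sdhaf4, whose probe sets were at -0.04 and -0.32. Of the remaining markers of other cells, 1 of 7 CD8 T and NK cell genes passed the test, higher in pancreas, with summed intensities of 648 to 764 on pancreas and 630 to 686 on spleen arrays, and 0 passed among the 8 islet, 5 erythroid and platelet, 7 endothelial and stromal and 5 ductal genes. Klrd1, the gene that passed, was 1 of 4 CD8 T and NK cell genes below background on all arrays. Cd8a, Cd8b1 and Prf1, above background, had log2 fold changes of 0.01, -0.02 and -0.14. The endothelial and stromal markers summed to 972 to 1001 on pancreas and 1242 to 1321 on spleen arrays. Of these 7, Pecam1 had a log2 fold change of -0.81 ± 0.19 SE, while 5 had a higher mean in pancreas and the list median was 0.04.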
